A study of Mus musculus with 126 samples.

Results

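The interferon response genes studied here are a list of 37 mouse genes that interferons are known to induce or that carry the response. Of them, 34 had a probe set of their own, and the probe set with the highest mean stood for the gene, out of 22180 genes with a probe set of their own in the series. Gbp2 and Dtx3l were measured only by probe sets that the platform annotation shares with Gbp2b and Parp9, and are given apart. Ifi44 had no probe set named here. All 34 passed the filter on low values, which dropped probe sets with a mean in the lowest 10% of the array.

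The tumors were primary prostate tumors from 126 males of a TRAMP x NOD/ShiLtJ F2 intercross, each run on a separate array. All males carried the TRAMP transgene, SV40 T antigen driven by the probasin promoter, which directs it to prostate epithelium, on a background that segregates C57BL/6J and NOD/ShiLtJ alleles, and were killed at 30 weeks of age or at a humane endpoint. The labels give metastasis in 87 males and no metastasis in 39, and do not name its site. Tumor burden, the weight of the primary tumor, ran between 0.1 and 14 g with a median of 4.54 g. There were 15 tumors under 1 g, 58 from 1 g to under 5 g, and 53 of 5 g and over. Values are log2 signals on an array-wide scale, so that 1 unit is a doubling.

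Interferons are secreted proteins that signal through receptors and JAK kinases. Type I and type III interferons act through the interferon-stimulated response element (ISRE) in promoters, and interferon gamma through the gamma-activated site (GAS). The genes switched on include sensors of viral RNA and DNA, enzymes that block viral replication, GTPases that attack intracellular pathogens, and transcription factors that amplify the response. In tumors the same genes can be expressed by malignant, stromal or immune cells.

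The array of mouse N1202 stood apart, with a mean correlation with the other arrays of 0.880, against 0.915 for the next lowest and a median of 0.970. Without it, 29 of 34 members still fell with burden, against 3760 of 23507 probe sets. Other values that move without this array are given beside the result. Prostate luminal markers (6 genes) averaged between 5.61 and 10.9 log2 per tumor, with a median of 6.29, and neuroendocrine markers (11 genes) between 6.21 and 9.56, with a median of 9.17. Both lists varied widely between tumors.

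The letters through which interferons are known to act are shown for 8 members, among them Ifit3, whose values did not follow the other members. RefSeq promoters (GRCm38.p6, 250 bases before to 50 after the start of a gene) were found for 29 of the 37 genes. The ISRE letters GAAANNGAA, read on both strands, were in 17 of these 29 genes (58.6%) against 9.76% of 27025 genes in the table. The GAS letters TTCNNNGAA were in 7 of 29 (24.1%) against 9.55%. Stretches of up to 29 bases around the match nearest to the start of the gene are given 5′ to 3′ on the strand of the gene, with the ISRE letters, on either strand, in capitals. They lie at chr4:156200872-156200900 (Isg15, minus strand), chr19:34640795-34640823 (Ifit1, plus), chr19:34583417-34583445 (Ifit3, plus), chr5:120777713-120777741 (Oas3, minus), chr8:71537581-71537609 (Bst2, minus), chr12:26456553-26456581 (Rsad2, minus), chr3:142530274-142530302 (Gbp7, plus) and chr11:58199512-58199540 (Igtp, plus).
Isg15: gtagGAAAAGGAAACCGAAACAGAAaata
Ifit1: cagtctcagtTTCAGTTTCtcactgctga
Ifit3: tactttcctcTTCCCTTTCacaaacactg
Oas3: gggaggaGAAAACGAAAGTGAAgggaggt
Bst2: attccagGAAAATGAAACTGAAaggctgc
Rsad2: tggtccaactTTCATTTTCagaaaacaga
Gbp7: tgtgtgcagtTTCAGTTTCagttctccat
Igtp: tctaggaactGAAACTGAAagctgttcgg
Isg15 has 3 overlapping matches, and Ifit1 and Ifit3 have 3 matches each in the whole promoter. A match is a description of the letters only. The promoters of the other 12 matched genes, Oasl1, Oasl2, Irf1, Irf7, Irf9, Ifit2, Ifi35, Lgals3bp, Cmpk2, Herc6, Dtx3l and Xaf1, do not hold the ISRE letters in this window.

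Interferon response genes were lower in heavier tumors. Of 34 members, 29 fell with burden and 0 rose, against 16.4% of 23507 probe sets that fell and 20.3% that rose in the same fit. The median slope of the members was -0.063 log2 per g, against 0.0036 over all probe sets. The test was limma over all 126 tumors with Benjamini-Hochberg adjustment across 23507 probe sets, and a gene was called at an adjusted p under 0.05. Without the 15 tumors under 1 g, 4.54% of all probe sets fell and 10 of 34 members did, Ifit1, Ifih1, Oasl2, Oas2, Stat2, Rtp4, Xaf1, Parp14, Eif2ak2 and Lgals3bp, against 29 with these tumors. Tag numbers of the mice were used to split the tumors, with limits of 500, 800 and 1000 set here. The labels do not say whether the numbers follow cohort, time or processing. Within the 4 tag ranges (18, 21, 39 and 48 tumors), 31, 33, 31 and 28 of 34 members had a slope below 0. The share over all probe sets was not computed within ranges.

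Among sensors and antiviral enzymes, 8 of 8 members fell. Oasl2, a 2′-5′ oligoadenylate synthetase-like protein, had the steepest slope. Its log2 values were 6.19 to 11.4 with a median of 9.00 in tumors under 1 g, 5.98 to 11.3 with a median of 7.59 in tumors from 1 g to under 5 g, and 5.69 to 9.77 with a median of 6.92 in tumors of 5 g and over. The ranges overlapped widely while the medians stepped down with burden. The fitted slope was -0.18 ± 0.032 log2 per g (SE, limma adjusted p = 7.81e-06), or 1.84-fold lower per 5 g. Pearson's r with burden was -0.442 and Spearman's rho -0.414, each with a two-sided permutation p of 1e-05, the smallest that 100000 resamples can give, and leaving out the pair of mice with the most extreme burdens gave r = -0.426.

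Oas2, which makes the second messenger that activates RNase L, had medians of 7.33, 6.01 and 5.83 in the light, middle and heavy tumors. Its slope was -0.13 ± 0.026 log2 per g (adjusted p = 5.99e-05), with r = -0.398 (permutation p = 2e-05) and rho = -0.366 (permutation p = 5e-05). Ifih1 (MDA5), a cytoplasmic sensor of long double-stranded RNA, had medians of 8.71, 7.88 and 7.45 and a slope of -0.13 ± 0.026 (adjusted p = 6.56e-05). Its r was -0.396 and its rho -0.418, both with permutation p = 1e-05. Oas3 had a shallow slope of -0.036 ± 0.011 (adjusted p = 0.00764) and the third smallest spread among members, an SD of 0.39 over 126 tumors. Its r was -0.274 (permutation p = 0.00174) and its rho -0.287 (permutation p = 0.00104). The other members of this group, Dhx58, Oasl1, Eif2ak2 and Zbp1, had slopes of -0.090 to -0.044.

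All 4 transcription factors fell. Irf7, the factor that amplifies interferon alpha production, spanned 6.87 to 10.6 with a median of 8.32 in tumors under 1 g, 6.45 to 10.9 with a median of 7.34 in tumors from 1 g to under 5 g, and 6.45 to 9.71 with a median of 7.10 in tumors of 5 g and over. Its slope was -0.10 ± 0.024 log2 per g (adjusted p = 0.000385). Stat2 and Irf9, which bind the ISRE as parts of a complex, each had a slope of -0.063. Irf1 had a slope of -0.031 ± 0.0085 (adjusted p = 0.00275), the shallowest among members that were called. Its SD over all tumors, 0.30, was the second smallest. Its r was -0.306 (permutation p = 6e-04) and its rho -0.266 (permutation p = 0.0027).

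Of the IFIT and other antiviral effectors, 8 of 11 measured fell. Ifit1, which binds viral RNA that lacks the host cap modification, had 5.94 to 10.2 with a median of 7.41 in tumors under 1 g, 5.76 to 10.4 with a median of 6.44 in the middle tumors, and 5.39 to 8.34 with a median of 6.18 in tumors of 5 g and over. The slope was -0.12 ± 0.025 (adjusted p = 3.37e-05), with r = -0.411 and rho = -0.418, both with permutation p = 1e-05. Its neighbours on chromosome 19 did not share this. Ifit2 had medians of 6.66, 6.87 and 6.82, with a slope of 0.012 ± 0.018 (adjusted p = 0.652, r = 0.0573 with permutation p = 0.523, rho = 0.0911 with permutation p = 0.310). Ifit3 had medians of 7.29, 7.34 and 7.41, with a slope of 0.012 ± 0.0076 (adjusted p = 0.202, r = 0.144 with permutation p = 0.108, rho = 0.161 with permutation p = 0.0730). Rsad2 (viperin) was also not called, at -0.036 ± 0.019 (adjusted p = 0.139). Cmpk2, its neighbour on chromosome 12, was called at an adjusted p of 0.0442, and lost the call with arrays centred on their medians (0.0823), by Spearman's correlation (0.0839), on log2 burden (0.0746), without the 2 extreme burdens (0.0719) and without the 2 tumors of strongest response (0.126), where Gbp3 lost it too (0.0798).

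In the ISG15 system, Isg15 itself and the ubiquitin ligase Trim25 fell, with slopes of -0.044 and -0.068. Usp18, the protease that removes ISG15, had the second largest spread of all members (SD 1.09), with medians of 8.79, 8.53 and 8.12, and was not called (slope -0.053 ± 0.032, adjusted p = 0.190). Herc6, the mouse ligase of ISG15, had medians of 9.32, 9.88 and 9.78 and a slope of 0.0021 ± 0.017 (adjusted p = 0.939, r = 0.0109 with permutation p = 0.903, rho = 0.00956 with permutation p = 0.916). Without the array of N1202 its slope was -0.0046. Both measured members of the PARP group fell. Parp14, an ADP-ribosyltransferase, had medians of 8.53, 6.91 and 6.75 and a slope of -0.13 ± 0.025 (adjusted p = 2.2e-05, r = -0.420 with permutation p = 1e-05, rho = -0.376 with permutation p = 3e-05). The probe set shared by Dtx3l and Parp9 fell at -0.072 (adjusted p = 0.000940). All 5 measured GBP and IRG GTPases fell, with slopes of -0.089 to -0.040, and the probe set shared by Gbp2 and Gbp2b fell at -0.075 (adjusted p = 0.000935).

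**Figure D1:**
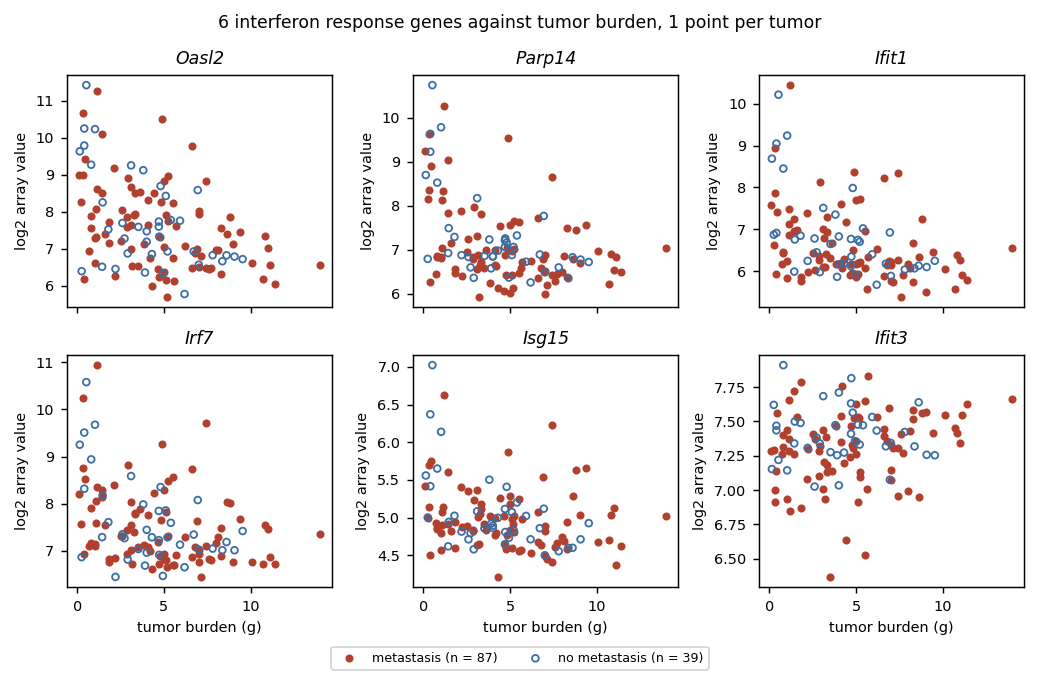
Log2 array value (y axis) against tumor burden in g (x axis) for 6 members, 1 point per tumor, filled for metastasis and open for no metastasis. Oasl2, Parp14, Ifit1, Irf7 and Isg15 reach their highest values in N582 (0.52 g) or N586 (1.16 g). The slope of Ifit3 was not called, and its values lie within 6.37 to 7.91.

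**Figure D2:**
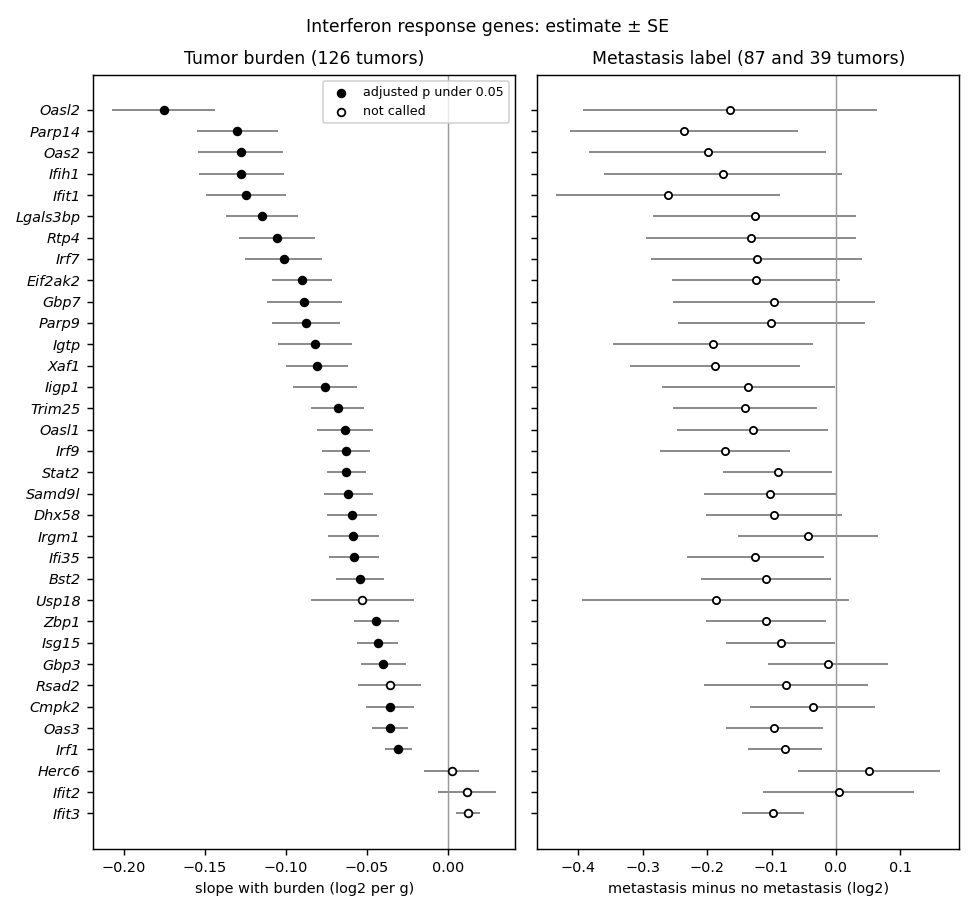
Slope with burden (left, log2 per g) and difference of metastasis minus no metastasis (right, log2) of the 34 members, with SE. Filled points passed the adjusted threshold of 0.05: 29 on the left, all below 0, and 0 on the right.

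Other tissue markers moved with burden in the same tumors, and the part of cell composition in the fall of the members cannot be told apart from a change within cells, since fewer cells of a type and less RNA per cell look alike in bulk tissue. All 15 epithelial junction genes fell, as did 6 of 13 T and NK cell genes, 4 of 13 macrophage genes, 7 of 8 fibroblast genes and 6 of 6 smooth muscle genes. Neuroendocrine genes rose in 8 of 11 cases and proliferation genes in 6 of 6. The epithelial junction genes averaged 8.87, 6.26 and 6.02 log2 as medians of light, middle and heavy tumors, and ranged between 5.66 and 10.1. The T and NK cell mean ran only between 4.85 and 5.97, with some genes near the filter, such as Gzma at 3.47. With the macrophage mean as a covariate, 25 of 34 members fell, against 13% of all probe sets. With the T and NK cell mean, 1 of 34 (Stat2) did, against 2.64% of all. With the epithelial junction mean, 0 of 34 did (smallest adjusted p = 0.439, and 0 of 34 at an unadjusted p under 0.05), against 0.136% of all.

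The wider pathway was described from lists. None of 16 interferon ligands was called by limma (0 rose, 0 fell), and 1 had an unadjusted p under 0.05. That was Ifna4, which had a slope of -0.019 (adjusted p = 0.0501). Next by p were Ifna1, Gm13271 and Ifna2 with slopes of 0.0080, 0.0093 and -0.0068. Of receptors and kinases, 7 of 9 fell and 0 rose. Il10rb, a chain of the interferon lambda receptor, fell at -0.095, Ifnlr1, the other chain, at -0.086, Ifngr1, a chain of the interferon gamma receptor, at -0.055, and Tyk2, the kinase, at -0.043. Among other transcription factors, 4 of 5 fell, namely Irf2, Irf3, Irf8 and Nlrc5, with slopes of -0.056, -0.051, -0.058 and -0.047.

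Of other sensors and adaptors, 10 of 14 fell, Tlr3 (-0.18), Ifi205 (-0.18), Ddx58 (-0.11) and Ikbke (-0.071) among them. Aim2, a sensor of cytoplasmic DNA and the 1 gene of the list that rose, did so at 0.10 ± 0.028 (adjusted p = 0.00273). It was picked out after its values were seen. Of 7 inhibitors, 2 fell, Samhd1 and Ptpn6, while the slopes of Socs1 and Adar were 0.015 and -0.0038. Of 45 other interferon-stimulated genes, 34 fell and 0 rose. Those of smallest p were Ifitm3 (-0.14), Trim21 (-0.11), Uba7 (-0.12) and Isg20 (-0.084). Antigen processing genes fell in 9 of 10 cases, and those of smallest p were Erap1 (-0.13), Tapbp (-0.093), B2m (-0.068) and Psmb9 (-0.072). Of 4 interferon-induced chemokines, 1 fell, Ccl5 (-0.094), while Cxcl10, Cxcl11 and Cxcl9 were not called, and of 9 other GBP and IRG GTPases 2 fell, Irgm2 (-0.10) and Gbp5 (-0.034), while Gbp4 and Gm12250 were not called. The lists share the background shares given above for the 23507 probe sets.

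**Figure D3:**
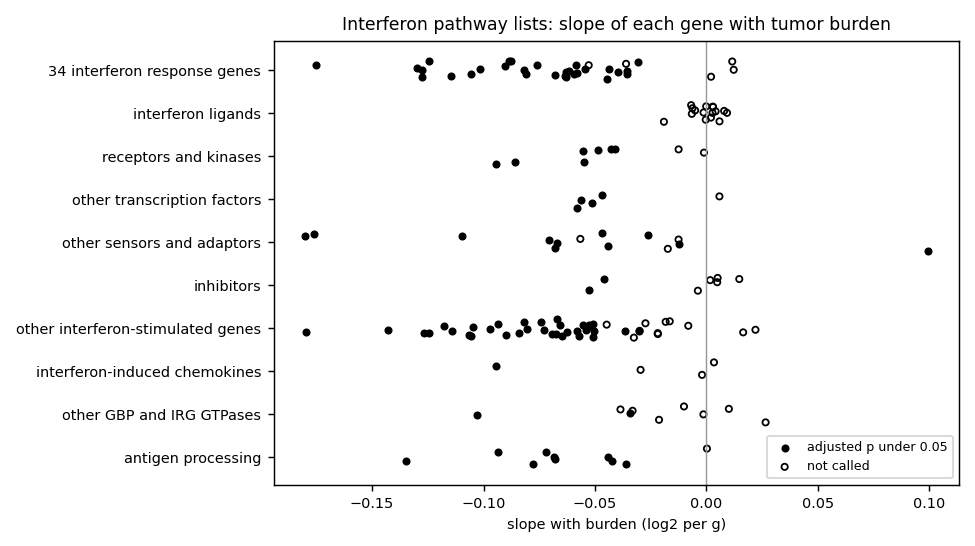
Slope with burden in log2 per g (x axis) of each gene of the 34 members and of 9 pathway lists (rows), filled where the adjusted p was under 0.05. Ligands, which varied little between tumors, sit around 0. Most receptors, transcription factors and stimulated genes lie below 0, and Aim2 is the filled point above 0.

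The members showed no called difference by metastasis. None of 34 was called, as none of 23507 probe sets was (0%). At an unadjusted p under 0.05 there was 1 of 34, Ifit3, against 3.72% of all probe sets, and without N1202 there was 0 of 34, against 2.66%. In tumors of males with metastasis 32 of 34 members were lower. The median difference over the 34 was -0.12 log2, against 0.0024 over all probe sets. Members correlate with each other (median r 0.710 over pairs), so their signs are not separate observations. The largest difference was that of Ifit1, which averaged 6.57 ± 0.84 in tumors with metastasis and 6.83 ± 1.04 in tumors without (SD, n = 87 and 39), a difference of -0.26 ± 0.17 (SE). Parp14 averaged 7.07 ± 0.88 with metastasis and 7.31 ± 1.04 without, and Oas2 averaged 6.17 ± 0.87 with metastasis and 6.37 ± 1.15 without. The SDs within each label were wider than these 3 differences. Given burden, 1 of 34 members, again Ifit3, had an unadjusted p under 0.05, against 3.39% of all, and the median difference was -0.063. Without the tumors under 1 g, the median difference by metastasis was -0.012, and 20 of 34 members were lower. Within the 4 ranges of mouse tag numbers, the median difference was -0.27, -0.44, -0.22 and 0.17 in ascending order of tag, and in the last range (32 tumors with metastasis and 16 without) 31 of 34 members were higher with metastasis. These differences were not tested, and shares over all probe sets within the ranges were not computed.

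The slope with burden was also compared between labels. No member and no probe set had a burden-by-metastasis interaction after adjustment (smallest adjusted p among members 0.274). Unadjusted, 7 of 34 members were under 0.05, against 13.5% of all probe sets. Of the correlated members, 32 of 34 had an interaction above 0. The median was 0.055 log2 per g, against 0.00088 over all probe sets. Without the array of N1202, 7 of 34 members were under 0.05, against 8.19% of all, and the smallest adjusted p among members was 0.585. Without the tumors under 1 g, 0 of 34 members were, against 3.71% of all.

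Members rose and fell together across tumors. Over the 561 pairs of 34 members the median Pearson's r was 0.710 and the median Spearman's rho 0.592, against a median r of 0.00125 over all pairs of tested probe sets. An r above 0.5 was found in 77% of member pairs and in 2.55% of all pairs. These are descriptions over 126 tumors that share the same arrays and normalization. The median r was 0.671 in tumors with metastasis and 0.773 in tumors without, 0.807 under 1 g and 0.643 from 1 g up. Without the 6 tumors of strongest response it was 0.558.

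Irf7 followed the mean of the other members most closely (r = 0.954, rho = 0.923), ahead of Rtp4 (r = 0.952, rho = 0.922), a chaperone of G protein-coupled receptors, and Ifit1 (r = 0.945, rho = 0.881). Of the 34 members, 30 exceeded 0.7. The exceptions were Cmpk2 (r = 0.366, rho = 0.286), Ifit2 (r = 0.226, rho = 0.173), Herc6 (r = 0.210, rho = 0.237) and Ifit3 (r = -0.100, rho = -0.00409). Adjacent genes did not always move together. Gbp3 and Gbp7 on chromosome 3, 9865 bases apart, correlated at 0.837, Oasl1 and Oasl2 at 0.837 and Oas2 and Oas3 at 0.831 on chromosome 5, and Parp9 and Parp14 at 0.786 on chromosome 16. Rsad2 and Cmpk2 correlated at 0.513. Ifit2 and Ifit3, 6585 bases apart, correlated at -0.115, and Ifit1 with Ifit3 at -0.0989. Ifit3 had the smallest SD of all members (0.26), and probes shared with its close copy Ifit3b were not examined.

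**Figure D4:**
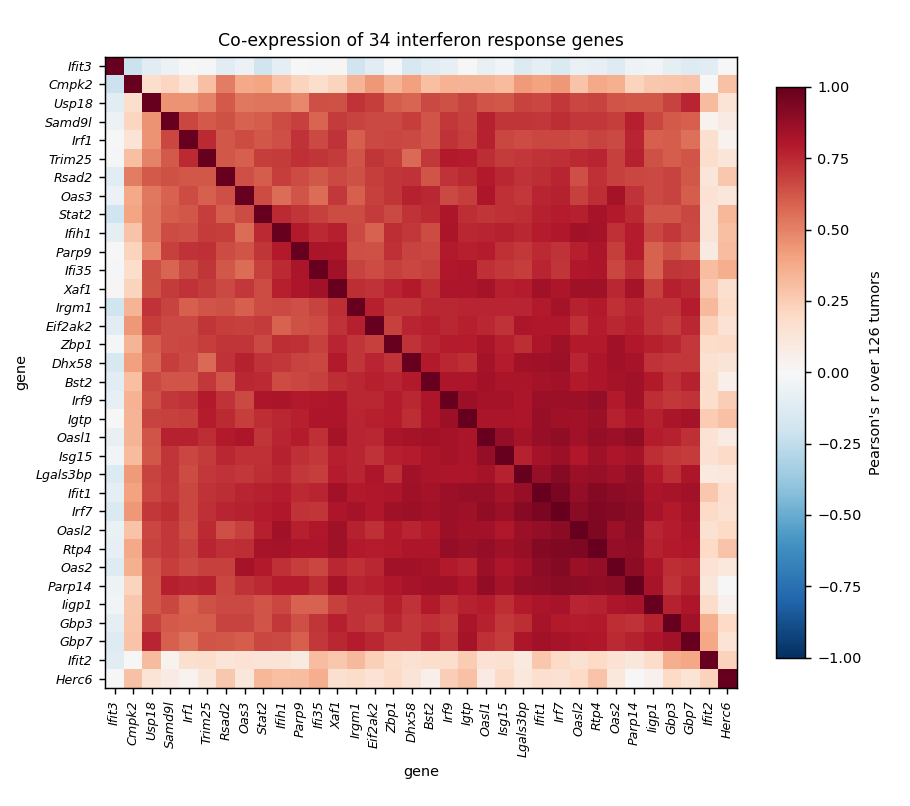
Pearson's r over 126 tumors between 34 members, ordered by clustering, from -1 (blue) to 1 (red). Most pairs are red, with a median of 0.710, while Ifit3, Ifit2, Herc6 and Cmpk2 stand out as pale rows.

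The genes outside the list with the pattern most like the members were Ddx58 (r = 0.957 with the mean deviation of the 34), Rnf213 (0.954), Ddx60 (0.951), Oas1g (0.944), Irgm2 (0.932), Oas1b (0.906), Tap1 (0.903), Psmb9 (0.901), Ccl5 (0.890) and Phf11d (0.888), of 20606 genes compared, with a median r of -0.0798. All 10 are in the pathway lists above, but those lists were chosen with earlier results of these data known. Their presence there is a description, not independent support. The mean of the 45 other interferon-stimulated genes correlated with the member mean at 0.965 (rho = 0.958). For the mean of the 16 ligands it was r = -0.107 (rho = -0.128), but the ligands varied little and some lay near the filter. Whether ligand expression is related to the response cannot be told from these values. Of marker lists, T and NK cell genes had r = 0.756 (rho = 0.585), epithelial junction genes 0.675 (rho = 0.445), macrophage genes 0.569 (rho = 0.655), plasmacytoid dendritic cell genes 0.0718 (rho = 0.138), neuroendocrine genes -0.675 (rho = -0.313) and proliferation genes -0.589 (rho = -0.391). Fibroblast, prostate luminal, smooth muscle and endothelial genes had r = 0.616, 0.601, 0.560 and 0.457 (rho = 0.594, 0.450, 0.450 and 0.455). Neutrophil, seminal vesicle and B cell genes had r = 0.368, 0.310 and 0.269. These are correlations of list means. Gene by gene, the median r was 0.356 for T and NK cell, 0.639 for epithelial junction and 0.474 for macrophage genes.

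A few tumors had a strong response. The response of a tumor is the mean over the 34 members of its log2 value minus the median of the member over all tumors. Responses ran between -0.60 and 2.55 with a median of -0.035, and 6 tumors were over the median plus 3 scaled median absolute deviations (1.26). In 81 tumors no member was over 2-fold above its median. Tumor N582 (0.52 g, no metastasis) had a response of 2.55, with 33 of 34 members over 2-fold above their medians. Tumor N586 (1.16 g, metastasis) had 2.38, with 32 of 34. The remaining 4 were N614 (1.02 g, no metastasis, 1.45), N293 (0.4 g, no metastasis, 1.44), N1159 (0.3 g, metastasis, 1.31) and N1423 (4.9 g, metastasis, 1.26). The next tumor below the limit, at 1.10, was N929 (7.4 g, metastasis), and N1202 had 0.52. The response correlated with the mean correlation of an array with the other arrays at r = -0.569 and rho = -0.187, so that arrays of strong response stood somewhat apart from the rest.

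In N582 the log2 value of Oas2 was 5.02 above its median and that of Oasl2 4.03 above. Parp14 and Ifit1 were 3.88 above, and Igtp, an interferon-inducible GTPase, was 3.56 above. In N586 Oas2 was 4.38, Ifit1 4.11 and Oasl2 3.87 above. Ifit3 was not raised in either, at -0.13 in N582 and -0.50 in N586. The 6 tumors ranked 3rd, 1st, 7th, 2nd, 9th and 4th of 126 in the mean of the epithelial junction genes, in the order in which they are named above. They ranked 5th, 3rd, 4th, 2nd, 6th and 9th in the mean of the T and NK cell genes, and 121st, 122nd, 120th, 126th, 105th and 124th in the mean of the neuroendocrine genes. Their macrophage ranks were 21st, 67th, 25th, 18th, 4th and 22nd, and the part of these cells in the response was not tested. In the epithelial junction mean, N275, N820, N1086 and N1234 ranked 5th, 6th, 8th and 11th. Their responses were 0.763, 0.815, 0.864 and -0.291, below the limit. N582, N586 and N614 have tag numbers from 500 to under 800, a range of 21 tumors. The 6 tumors are described one by one and were not tested as a group.

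**Figure D5:**
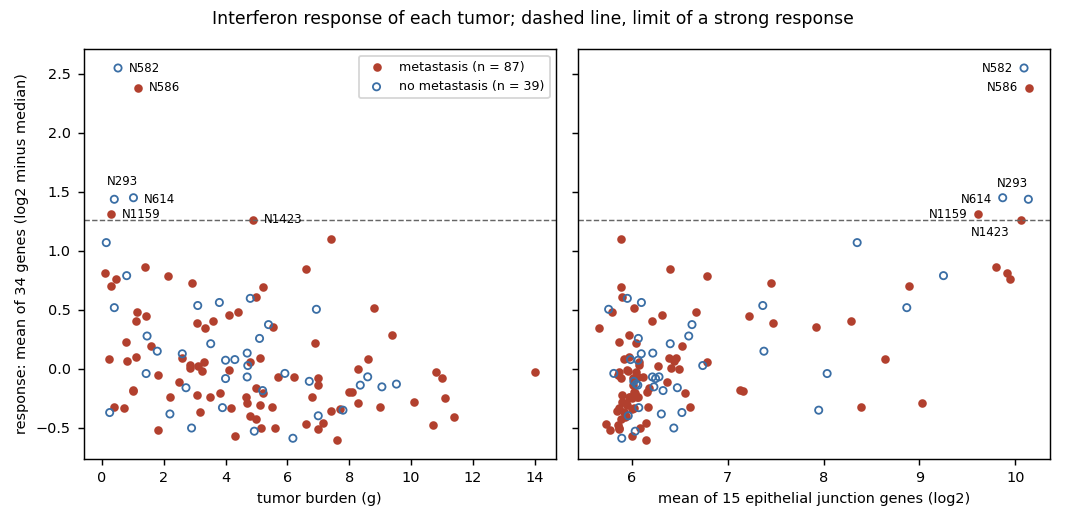
Response of each tumor (y axis, mean log2 deviation of 34 members) against tumor burden in g (left) and against the mean log2 value of 15 epithelial junction genes (right), filled for metastasis and open for no metastasis. The 6 named tumors lie above the dashed limit of 1.26, and all 6 sit to the right in the right panel.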

How the data were processed

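RNA of primary prostate tumors from 126 males was hybridized to Affymetrix Mouse Gene 2.0 ST arrays, with a separate array for every male. The values deposited by the authors are log2 expression, computed in Partek (no version stated) by robust multi-array averaging: background was corrected, arrays were quantile normalized and probes were summarized per probe set. Arrays have no read depth, and their number limits the precision.

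Probe sets were named through the platform annotation. Of 41345 probe sets, 23521 have 1 symbol, 1820 several and 16004 none. Tests covered 23507 named probe sets with a mean not below the 10th percentile (3.42). Linear models for burden, for metastasis, for both, and for both with their product were fitted in limma 3.58.1 under R 4.3.3, with moderated errors, Benjamini-Hochberg adjustment and a threshold of 0.05. Metastasis and burden came from the labels. Permutation tests of 100000 resamples used numpy 2.4.6 in Python 3.11.15. On simulated data with 23507 probe sets, 50 were changed at each size. Correlations with burden of 0.3, 0.4 and 0.5 were recovered in 40%, 80% and 100% of cases. Metastasis differences of 0.5 and 1 SD were recovered in 8% and 88%. Simulated probe sets were independent and few changed, while in the data 8637 of 23507 were called with burden. The recovered shares therefore describe the simulation, not the power in the data.

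Members and gene lists were chosen with earlier results of these data known. Genes named with full values were the 5 members of most positive and of most negative slope, the 3 of largest difference by metastasis, the 5 of largest and 3 of smallest SD, the 3 most and 3 least correlated with the other members, up to 4 genes per pathway list by burden p, and the 10 outside genes most like the members. Slides and scan times were not used here. Alternatives covered filters, normalization, covariates, tag number ranges and left-out tumors. P-values measure the spread between males.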

Additional observations from a re-analysis of the deposited data

How the results depend on the processing

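The count of members that fell with burden was 27 to 29 of 34 under filters, normalizations, the mean of all probe sets of a gene, the tag number block, the metastasis covariate, log2 burden, the methods' Pearson correlation, the Spearman correlation, and without N1202, the 2 extreme burdens or the 2 strongest responses, and 25 with the macrophage covariate. Over all 23507 probe sets, 3165 fell with arrays centred on their medians, 4858 on log2 burden and 3052 (13%) with the macrophage covariate. The member count was 10 without tumors under 1 g, 1 with the T and NK cell covariate and 0 with the epithelial junction covariate. In these fits 4.54%, 2.64% and 0.136% of all probe sets fell, against 16.4% without these changes. The median slope was -0.041 without tumors under 1 g, and -0.045, -0.020 and -0.0061 with the macrophage, T and NK cell and epithelial junction covariates. On other scales it was -0.325 (median Pearson's r), -0.308 (median rho) and -0.16 per doubling of burden. Within tag number ranges, which follow the numbering of the mice, it was -0.051 (under 500), -0.14 (500 to under 800), -0.066 (800 to under 1000) and -0.028 (from 1000). The median metastasis difference was -0.27, -0.44 and -0.22 in the first 3 ranges and 0.17 in the last, where 31 of 34 members were higher with metastasis; the cause was not tested. No alternative called a member by metastasis or by interaction.

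Slopes above 0 numbered 11 of 34 with the epithelial junction covariate, against 3 without it. Without tumors under 1 g, 14 of 34 metastasis differences were above 0, against 2 with them, and 11 of 34 interactions were below 0, against 2. Among the 13 members named with full values, the slope of Herc6 was -0.0046 without N1202, -0.034 without tumors under 1 g, and -0.0050, -0.0080 and -0.025 with the macrophage, T and NK cell and epithelial junction covariates. With the epithelial junction covariate, Oas3 was 0.0058, Irf1 0.0075 and Usp18 0.021, and with the T and NK cell covariate Usp18 was 0.011. Without tumors under 1 g, the metastasis differences of Oasl2, Oas2, Oas3, Irf7 and Rtp4 were 0.063, 0.024, 0.0091, 0.047 and 0.043, and the interaction of Usp18 was -0.029. Without N1202 the interaction of Herc6 was 0.0023. None of these values of the 13 was past the threshold. No paired analysis was possible because each male gave 1 array and the replicate numbers only name the samples.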
